A study of Mus musculus with 16 samples.

Results

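Slc4a1, Rhag, Epb42, Alas2 and Klf1 are 5 genes of the red cell lineage, taken as the probe sets annotated with those symbols and followed through all arrays of a study of the mouse olfactory mucosa. Each symbol had 1 probe set, so 5 of the 19505 genes measured are described. The study exposed S100a5-tauGFP mice to an odorant, octanol, or to filtered air as vehicle, sorted the dissociated mucosa by green fluorescence, and measured RNA on Clariom S arrays, which read gene level signal by hybridisation. S100a5, the gene behind the reporter, encodes a calcium-binding protein of olfactory sensory neurons and depends on their activity, and the sort divides the cells by that reporter.

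The 4 groups were GFP+ cells after octanol, GFP- cells after octanol, GFP+ cells after vehicle and GFP- cells after vehicle, with 4 arrays in each, numbered as the replicates in the labels. All came from reporter mice of both sexes aged 7 to 12 weeks, each array from a pool of 3 mice, and no group lacked the reporter. The mice were kept singly in chambers for 40 h, and pulses of 10 s every 20 min began at 26 h. GFP- cells are the rest of the sorted cells, and the labels name no step that removes blood cells. In such bulk samples, fewer cells of a type and less RNA per cell cannot be told apart. The sort was reflected in S100a5 itself, with a GFP+ to GFP- ratio of 1.82 after octanol and 1.77 after vehicle and high signal in both fractions. With arrays centred on the median of the odorant receptor genes, S100a5 was at 0.37 log2 after octanol and no longer passed (limma, adjusted p = 0.0609). The mean log2 signal of 13 mature sensory neuron markers was 16.23 to 16.41 in the octanol GFP+ arrays against 15.92 to 15.97 in octanol GFP-, and 16.24 to 16.35 in vehicle GFP+ against 15.84 to 16.11 in vehicle GFP-. After octanol 7 of the 13 passed as higher in GFP+ cells, and after vehicle 6. With receptor centring these counts were 0 and 1, and 4 markers passed as lower after octanol.

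Red cells arise in bone marrow from progenitors that switch on hemoglobin, heme synthesis and a specialised membrane, expel the nucleus, and enter blood as reticulocytes that still carry RNA. Klf1 is a zinc finger transcription factor that activates much of this program. Alas2 is the erythroid form of 5-aminolevulinate synthase, the first enzyme of heme synthesis. Slc4a1 encodes band 3, the chloride-bicarbonate exchanger that anchors the membrane skeleton, Epb42 encodes protein 4.2, which binds band 3, and Rhag encodes the Rh-associated glycoprotein of the same membrane complex. A shorter form of band 3 is used by acid-secreting intercalated cells of the kidney.

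The promoters of the members are shown because GATA1, the main erythroid transcription factor, is known to bind GATA motifs near genes of this lineage, and the arrays did not measure binding. The 250 bases before the annotated start were read for 4 of the 5 genes from RefSeq (mouse build GRCm38.p6), and that of Slc4a1, on chromosome 11, was not used here. Capitals mark the letters matching the GATA motif (AGATAA or AGATAG or else TGATAA or TGATAG) on either strand, and in Alas2 also those matching CCNCNCCC, a CACCC-type motif, on either strand.
Rhag, chr17:40810899-40811148, plus strand: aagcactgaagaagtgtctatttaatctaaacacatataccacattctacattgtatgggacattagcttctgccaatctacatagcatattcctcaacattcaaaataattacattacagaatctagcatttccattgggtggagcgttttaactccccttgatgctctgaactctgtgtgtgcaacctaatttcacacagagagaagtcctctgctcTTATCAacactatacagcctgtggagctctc
Epb42, chr2:121036878-121037127, minus strand: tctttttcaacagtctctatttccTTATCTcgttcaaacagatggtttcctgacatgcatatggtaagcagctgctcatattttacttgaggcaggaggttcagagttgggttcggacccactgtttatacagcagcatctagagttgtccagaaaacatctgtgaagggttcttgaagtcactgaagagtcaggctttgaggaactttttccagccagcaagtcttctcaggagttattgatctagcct
Alas2, chrX:150547167-150547416, plus strand: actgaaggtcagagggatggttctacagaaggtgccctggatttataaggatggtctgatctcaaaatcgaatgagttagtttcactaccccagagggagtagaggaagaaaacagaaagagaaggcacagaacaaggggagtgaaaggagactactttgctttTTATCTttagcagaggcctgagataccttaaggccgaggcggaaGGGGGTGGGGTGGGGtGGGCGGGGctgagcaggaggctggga
Klf1, chr8:84901732-84901981, plus strand: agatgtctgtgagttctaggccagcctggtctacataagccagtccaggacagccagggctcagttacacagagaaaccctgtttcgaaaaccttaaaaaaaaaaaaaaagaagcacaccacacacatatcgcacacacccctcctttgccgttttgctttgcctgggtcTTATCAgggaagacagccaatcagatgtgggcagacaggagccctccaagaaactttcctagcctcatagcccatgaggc
Each window held 1 GATA match, read on the strand opposite to the gene. It began 31 bases before the start in Rhag, 226 in Epb42, 86 in Alas2 and 80 in Klf1. Of 32851 mouse windows of the same length, 26.5% held such a match. The CACCC-type motif matched at 4 places in Alas2, some overlapping one another, and in none of the other 3 windows, against 45.9% of all windows. A match is a string of letters and was not tested for binding.

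All values below are deposited log2 signals, on which a difference of 1 is a factor of 2, and the level of one probe set cannot be set against that of another. A background level of 6.32 log2 was taken from 319 vomeronasal receptor genes, most of which are used by cells of another organ. Where arrays of a group lay under it, a fold is given as a lower bound. Differences between fractions were tested with limma on 16 arrays with the mouse pool as a block, with p-values adjusted by Benjamini-Hochberg over all 19505 genes. Of these, 13.2% were called lower and 16.7% higher in GFP+ cells after octanol at an adjusted p under 0.05, and 13.5% lower and 14.7% higher after vehicle.

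Of the 5 erythroid genes, 4 were lower in GFP+ than in GFP- cells after octanol and the same 4 after vehicle, and 0 were higher. These were Slc4a1, Rhag, Epb42 and Alas2. With GFP+ arrays under background raised to it, the median difference of the 5 genes was -2.08 log2 after octanol and -2.24 after vehicle, where the median of all genes, at their deposited signals, was 0.14 and 0.13. Klf1 lay close to background and did not pass the threshold after either exposure. The mean of the 5 genes' log2 signals was 6.41 to 7.18 in octanol GFP+ arrays against 8.52 to 9.77 in octanol GFP-, and 6.55 to 6.95 in vehicle GFP+ against 8.06 to 9.78 in vehicle GFP-.

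**Figure D1:**
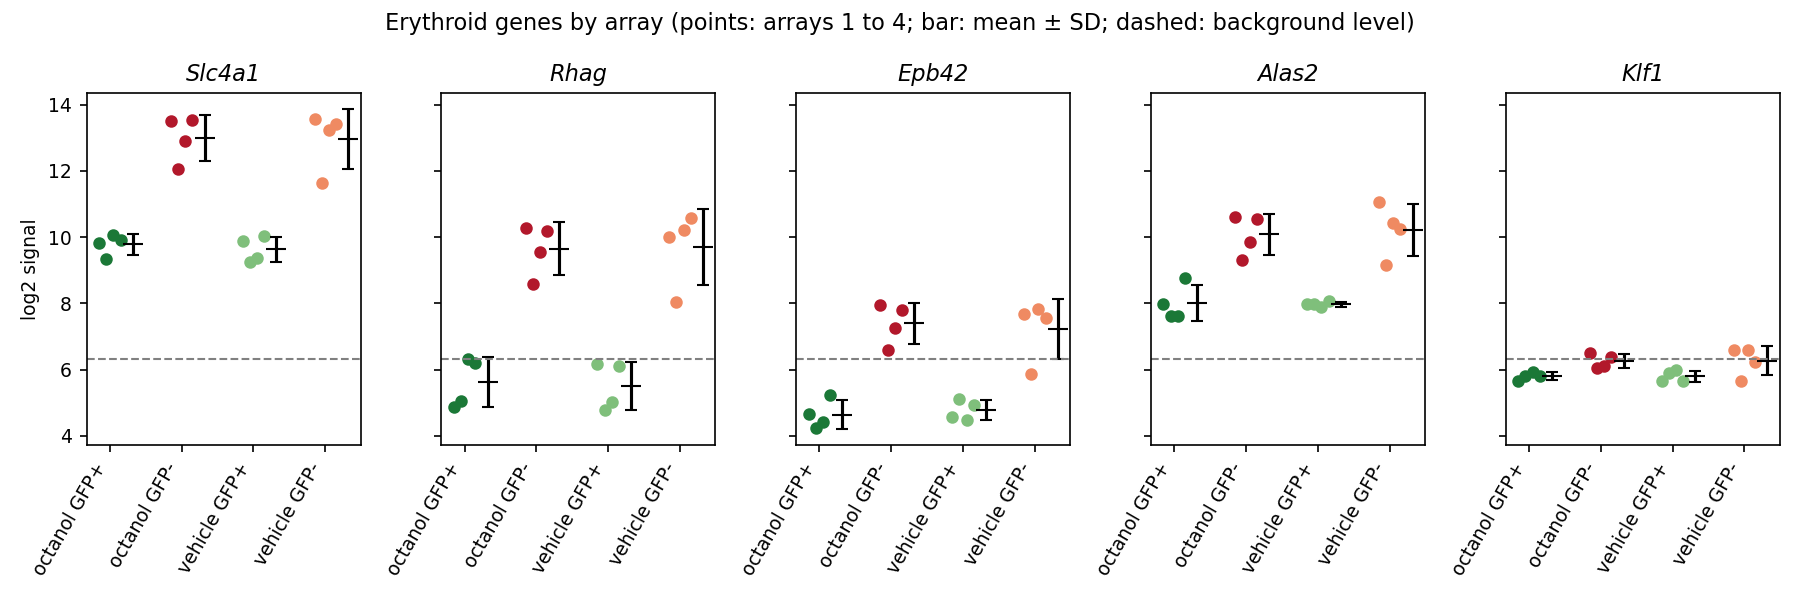
Log2 signal of Slc4a1, Rhag, Epb42, Alas2 and Klf1 on each of 16 arrays, with the group mean and SD beside the points and the background level of 6.32 as a dashed line. Slc4a1 stays above background in every array, whereas Epb42 does so in 7 of 16, all of them GFP-.

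Slc4a1, the anion exchanger, read 9.82, 9.32, 10.07 and 9.91 log2 in octanol GFP+ arrays 1 to 4, against 13.51, 12.06, 12.90 and 13.54 in octanol GFP-. It read 9.87, 9.24, 9.38 and 10.02 in vehicle GFP+ arrays, against 13.55, 11.62, 13.23 and 13.41 in vehicle GFP-. All GFP- arrays were above all GFP+ arrays, array 2 was the lowest of each group, and every array was above background. The difference was -3.22 ± 0.24 (SE) after octanol, which is 9.33-fold lower in GFP+ cells (limma, adjusted p = 6.14e-06). After vehicle it was -3.33 ± 0.24, or 10.0-fold lower with a 95% interval of 6.86 to 14.6 (limma, adjusted p = 4.98e-06).

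Rhag, the Rh-associated glycoprotein, read 4.88, 5.06, 6.32 and 6.20 in octanol GFP+ arrays, against 10.29, 8.57, 9.56 and 10.19 in octanol GFP-. It read 6.15, 4.77, 5.01 and 6.12 in vehicle GFP+ arrays, against 10.00, 8.04, 10.20 and 10.59 in vehicle GFP-. GFP+ arrays sat at or under background, with 1 of 4 above it after octanol and 0 of 4 after vehicle, and the fractions did not overlap. In GFP+ cells Rhag was lower by a factor of at least 10.1 after octanol (difference -4.04 ± 0.36 SE, limma, adjusted p = 1.98e-05) and at least 10.5 after vehicle (-4.19 ± 0.36, adjusted p = 1.55e-05).

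Epb42, protein 4.2, read 4.67, 4.25, 4.42 and 5.23 in octanol GFP+ arrays, against 7.94, 6.59, 7.26 and 7.80 in octanol GFP-. It read 4.58, 5.12, 4.48 and 4.92 in vehicle GFP+ arrays, against 7.68, 5.87, 7.82 and 7.54 in vehicle GFP-. No GFP+ array reached background, and vehicle GFP- array 2 was under it too, yet no GFP+ array was as high as any GFP- array. GFP+ cells had at least 2.11-fold less signal after octanol (-2.76 ± 0.35 SE, limma, adjusted p = 2.53e-04) and at least 1.87-fold less after vehicle (-2.45 ± 0.35, adjusted p = 5.62e-04).

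Alas2, the heme synthesis enzyme, read 7.99, 7.62, 7.63 and 8.76 in octanol GFP+ arrays, against 10.61, 9.31, 9.85 and 10.55 in octanol GFP-. It read 7.98, 7.98, 7.88 and 8.07 in vehicle GFP+ arrays, against 11.06, 9.15, 10.41 and 10.25 in vehicle GFP-. Every array was above background and the fractions did not overlap. The vehicle GFP+ arrays spanned a narrow range (7.98 ± 0.08, SD, n = 4), whereas the octanol GFP+ group held 1 array, the fourth, above the rest, with an SD of 0.54. Alas2 was 4.22-fold lower in GFP+ cells after octanol (-2.08 ± 0.27 SE, limma, adjusted p = 2.51e-04) and 4.73-fold lower after vehicle, with a 95% interval of 3.13 to 7.14 (-2.24 ± 0.27, adjusted p = 1.46e-04).

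Klf1, the transcription factor, read 5.65, 5.81, 5.94 and 5.80 in octanol GFP+ arrays, against 6.51, 6.05, 6.12 and 6.37 in octanol GFP-. It read 5.65, 5.90, 5.99 and 5.64 in vehicle GFP+ arrays, against 6.61, 5.65, 6.60 and 6.23 in vehicle GFP-. Background was passed in 0 of 4 GFP+ and 2 of 4 GFP- arrays of each exposure. The fractions did not overlap after octanol but did after vehicle, where GFP- array 2 was as low as the GFP+ arrays. The difference was -0.46 ± 0.19 (SE) after octanol (limma, adjusted p = 0.0890) and -0.47 ± 0.19 after vehicle (adjusted p = 0.0844). Without vehicle replicate 2 it passed in both, at -0.46 after octanol (adjusted p = 0.0331) and -0.72 after vehicle (adjusted p = 0.0102). It also passed with arrays centred on the median of the odorant receptor genes, at -0.96 after octanol (adjusted p = 0.00413) and -0.78 after vehicle (adjusted p = 0.0185).

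For each of the 5 genes the order of the group means was set by fraction, with both GFP- groups above both GFP+ groups. Slc4a1 averaged 9.78 ± 0.32 in octanol GFP+ cells against 13.003 ± 0.69 in octanol GFP- cells, and 9.63 ± 0.38 in vehicle GFP+ against 12.95 ± 0.90 in vehicle GFP- (SD, n = 4 each). Rhag averaged 5.62 ± 0.75 in octanol GFP+ against 9.65 ± 0.79 in octanol GFP- cells, and 5.51 ± 0.73 in vehicle GFP+ against 9.71 ± 1.14 in vehicle GFP- cells. Epb42 averaged 4.64 ± 0.43 in octanol GFP+ against 7.40 ± 0.61 in octanol GFP-, and 4.78 ± 0.30 in vehicle GFP+ against 7.22 ± 0.91 in vehicle GFP-. Neighbours in the order that differ only by exposure lay within 1 SD of each other for all 5 genes. The SD was larger in GFP- than in GFP+ cells for each gene within each exposure.

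Taken pool by pool, the GFP+ minus GFP- difference was negative in all 4 octanol pools for 5 of 5 genes and in all 4 vehicle pools for 4 of 5. Over all genes, 16.4% were lower in every octanol pool and 17.6% in every vehicle pool. Slc4a1 differed by -3.69, -2.74, -2.83 and -3.63 in octanol pools 1 to 4 and by -3.68, -2.38, -3.85 and -3.39 in vehicle pools 1 to 4. Epb42 ranged more widely, from -3.26 to -2.34 across octanol pools and from -3.33 to -0.74 across vehicle pools. Klf1 in vehicle pool 2, at 0.25, was the 1 positive value. The groups of 4 did not overlap for 5 of 5 genes after octanol and for 4 of 5 after vehicle, where 12.4% and 13.2% of all genes lay wholly lower in GFP+ cells.

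**Figure D2:**
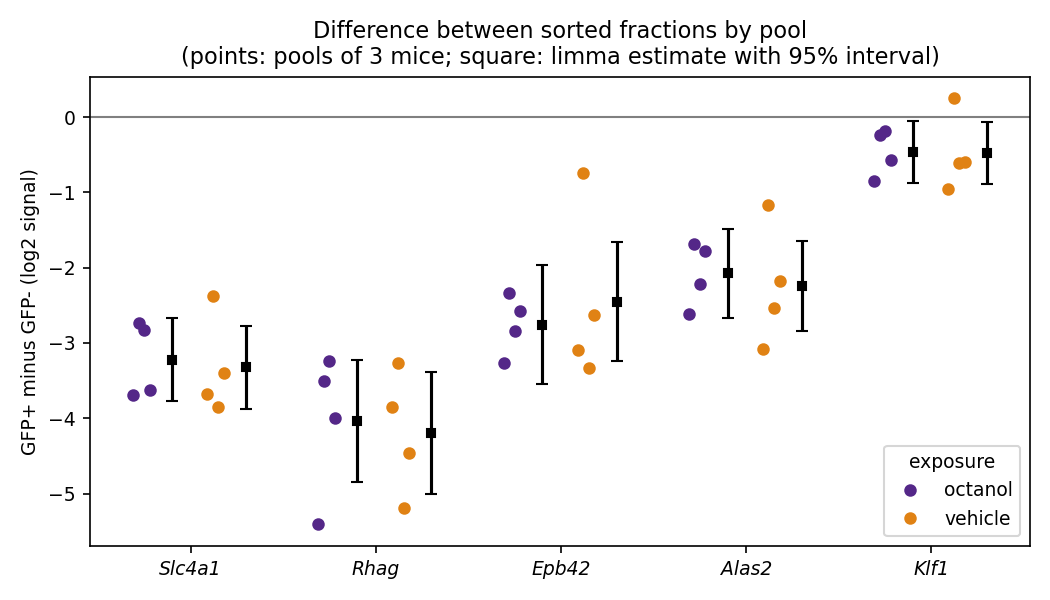
GFP+ minus GFP- difference in log2 signal for each gene in each pool of 3 mice (points), with the limma estimate and its 95% interval (squares and bars) for octanol and vehicle. Vehicle pool 2 has the smallest difference of the vehicle pools for every gene, and the intervals of Klf1 lie closest to 0.

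Octanol did not detectably change any of the 5 genes. Across all genes, 0.0% were called for the octanol effect on the GFP+ minus GFP- difference, for octanol against vehicle in GFP+ cells, or for the same in GFP- cells. At an unadjusted limma p under 0.05 the counts were 886, 727 and 894 of 19505 genes (4.54%, 3.73% and 4.58%), and a fit with a variance trend and robust moderation called 1 gene for the effect on the difference. The octanol effect on the difference was 0.10 for Slc4a1 (95% interval -0.67 to 0.88), 0.16 for Rhag (-0.99 to 1.30), -0.31 for Epb42 (-1.43 to 0.81), 0.16 for Alas2 (-0.68 to 1.01) and 0.01 for Klf1 (-0.57 to 0.60). Each had a limma adjusted p of 0.9985. Effects inside these intervals were not excluded by the data of 4 pools per exposure.

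In GFP+ cells, octanol minus vehicle was 0.15 for Slc4a1 (95% interval -0.33 to 0.63), 0.10 for Rhag (-0.83 to 1.03), -0.13 for Epb42 (-0.63 to 0.36), 0.03 for Alas2 (-0.49 to 0.54) and 0.003 for Klf1 (-0.27 to 0.28). In GFP- cells it was 0.05 for Slc4a1 (-0.92 to 1.02), -0.05 for Rhag (-1.23 to 1.12), 0.17 for Epb42 (-0.77 to 1.12), -0.14 for Alas2 (-1.01 to 0.73) and -0.01 for Klf1 (-0.48 to 0.46).

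Among the 8 GFP- arrays the 5 genes were low in the same arrays. Vehicle array 2 was the lowest and octanol array 2 the second lowest for all 5 genes, and octanol array 3 was the third lowest for all 5. Relative to the mean of the 8 arrays, vehicle array 2 stood at -1.36 for Slc4a1 and -1.64 for Rhag. Klf1 was above background in only 2 of 4 GFP- arrays of each exposure, and Epb42 was under background in vehicle array 2. All 10 pairs of the genes correlated with an adjusted p under 0.05 (Pearson r 0.833 to 0.973, exact permutation test, adjusted p 0.00752 to 0.0313 over 35 pairs). Spearman's rho was 0.595 to 0.952, and 2 of the 10 pairs passed (exact permutation test, adjusted p 0.0391 to 0.309). With exposure means removed r was 0.833 to 0.977. Without the 2 arrays farthest from the median r was 0.293 to 0.839 and 0 of 10 pairs passed (exact permutation test, adjusted p 0.332 to 0.745). Those left out were octanol array 2 and vehicle array 2, but vehicle arrays 1 and 2 for Klf1 with Rhag. Leaving them out narrows the spread and leaves fewer arrays, so it cannot decide how far the relation rests on them. The permutation tests took the 8 arrays as exchangeable. Over all genes, deviations of octanol and vehicle GFP- arrays of numbers 1 to 4 correlated at 0.0719, 0.332, 0.149 and 0.284. Whether arrays of the same number are independent was not tested, and if they are not, the p-values are too small.

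**Figure D3:**
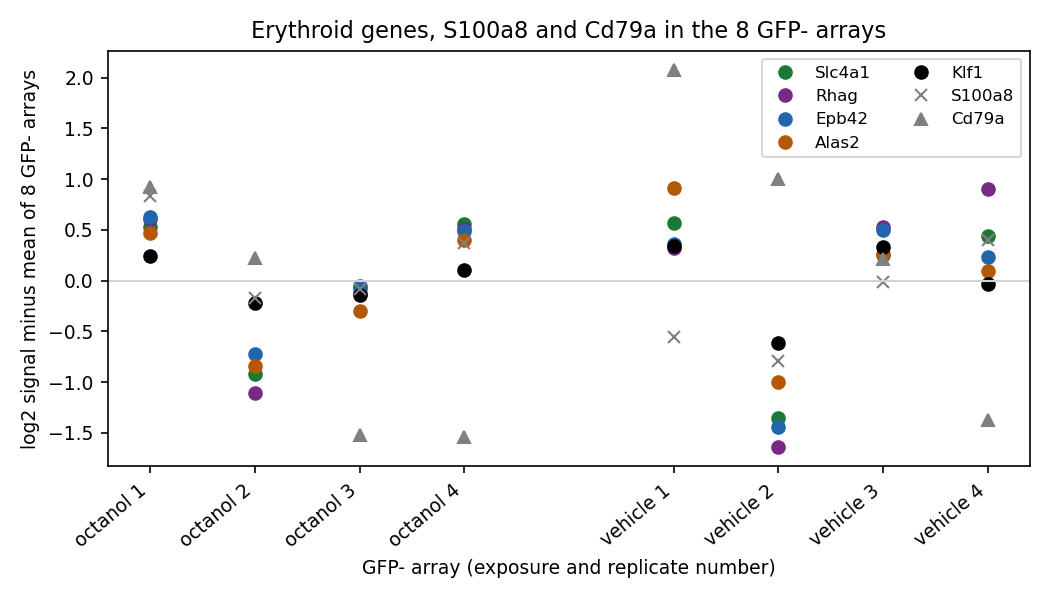
Log2 signal of the 5 genes, of S100a8 (neutrophil) and of Cd79a (B cell) in each of the 8 GFP- arrays, as the difference from each gene's mean over those arrays. All 5 erythroid genes lie lowest in array 2 of each exposure, Cd79a lies above its mean there, and S100a8 is lowest in vehicle array 2 and at -0.17 in octanol array 2.

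The same arrays were compared for 1 marker each of 5 other blood cell types. In array 2, S100a8, a neutrophil gene, stood at -0.17 after octanol and -0.79 after vehicle relative to its mean, Lyz2, a monocyte and macrophage gene, at -0.33 and -0.41, and Cd79a of B cells at 0.22 and 1.003. For S100a8 and Lyz2, vehicle array 2 was the lowest of the 8. S100a8 correlated with the 5 genes at r 0.419 to 0.705, and Lyz2 at 0.437 to 0.710. Cd3e of T cells gave 0.253 to 0.567, Pf4 of platelets 0.048 to 0.393, and Cd79a -0.280 to 0.142. Spearman's rho over these 25 pairs was -0.286 to 0.881. No pair passed (exact permutation tests, adjusted p 0.146 to 0.909 for r and 0.0845 to 0.977 for rho). That a marker's r with the 5 genes differs from their r with each other was not tested. Nor does a single marker stand for its cell type. Against the mean of the 5 genes, platelet list genes spanned r -0.41 (Vwf) to 0.79 (Gp9). T and NK genes spanned -0.35 (Cd4) to 0.57 (Nkg7), and monocyte and macrophage genes -0.68 (Mrc1) to 0.78 (Ccr2). Neutrophil genes spanned 0.28 to 0.71 and B cell genes -0.37 to -0.09. These ranges cover list genes above background on all 8 GFP- arrays.

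**Figure D4:**
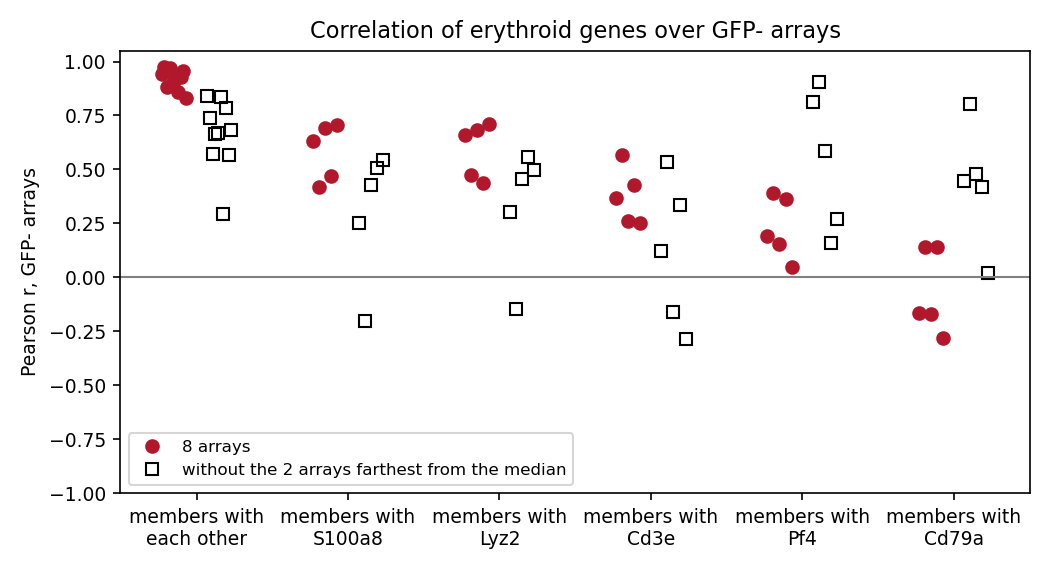
Pearson r over the GFP- arrays for the 10 pairs among the 5 genes and for each gene with S100a8, Lyz2, Cd3e, Pf4 or Cd79a, over all 8 arrays (filled) and without the 2 arrays farthest from the median (open). The 10 pairs lie at 0.833 or above over 8 arrays, and at 0.839 or below without those 2.

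Each gene was also ranked by its r with the mean of the other 4 over the 8 GFP- arrays, among 12146 genes. Slc4a1 ranked 1 (r = 0.989), Epb42 ranked 3 (0.976), Rhag 14 (0.941), Alas2 46 (0.921) and Klf1 51 (0.910). These are descriptions, since every r comes from the same 8 arrays and whatever mix of cells each held.

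Likeness was also read in 12145 genes outside the 5, each above background on all 8 GFP- arrays, which Klf1 and Epb42 were not. The 12 whose pattern was most like the mean of the 5 genes over the 8 arrays were Ctse, Rrm2, Car2, E2f8, Ube2c, Slc43a3, Mbnl1, Rbm38, Ncapg, Glb1l, Lats2 and Kif20b. Their Pearson r was 0.951 to 0.983, where the median gene had -0.089. Ctse encodes the protease cathepsin E, Car2 a carbonic anhydrase, and both were in the list of late erythroid genes. Rrm2 encodes a subunit of ribonucleotide reductase, and Ube2c, Ncapg and Kif20b act in mitosis. Without the 2 farthest arrays, r was 0.599 to 0.963 for these 12 and only 2 of them stayed among the 12 most alike. With exposure means removed, 7 did. Of the 12, 11 were lower in GFP+ cells after octanol and 11 after vehicle, the exception being Glb1l (0.29, adjusted p = 0.295 after octanol, and 0.49, adjusted p = 0.101 after vehicle, limma). Over all genes, 13.2% were called lower after octanol and 13.5% after vehicle. The 12 were picked among genes above background in every GFP- array, by their pattern there. Their count is therefore a description and no separate evidence.

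The wider erythroid program was described with 7 lists of known genes, 118 measured genes in all without the 5. After octanol 55 were lower and 7 higher in GFP+ cells, with a median of -0.32, and after vehicle 53 were lower and 6 higher, with a median of -0.36. With the dimmer fraction's arrays raised to background where under it, both medians were -0.13. Over all genes, 13.2% were lower and 16.7% higher after octanol, and 13.5% lower and 14.7% higher after vehicle. The counts of the lists and of all genes moved with the scaling. With arrays centred on the median of all genes, 47 were lower and 32 higher after octanol and 39 lower and 37 higher after vehicle, as the median of all genes shifted to 0.41 and 0.46. Of all 19505 genes, 2028 were then lower and 11401 higher after octanol, and 1986 lower and 12759 higher after vehicle. With arrays centred on the odorant receptor median, 96 were lower after octanol and 76 after vehicle with 0 higher, as the median of all genes shifted to -0.36 and -0.17. In that setting 8740 of the 19505 genes were lower and 536 higher after octanol, and 4387 lower and 630 higher after vehicle. Quantile normalisation gave 57 lower and 9 higher after octanol and 51 lower and 12 higher after vehicle. Among all genes it gave 2472 lower and 4286 higher after octanol, and 2457 lower and 4561 higher after vehicle. Without replicate 2 of both exposures, a setting chosen after seeing the data, 51 were lower and 2 higher after octanol and 49 lower and 3 higher after vehicle, and 5 of the 5 erythroid genes above were lower after each. All genes called there were 2243 lower and 2048 higher after octanol, and 2345 lower and 1892 higher after vehicle.

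**Figure D5:**
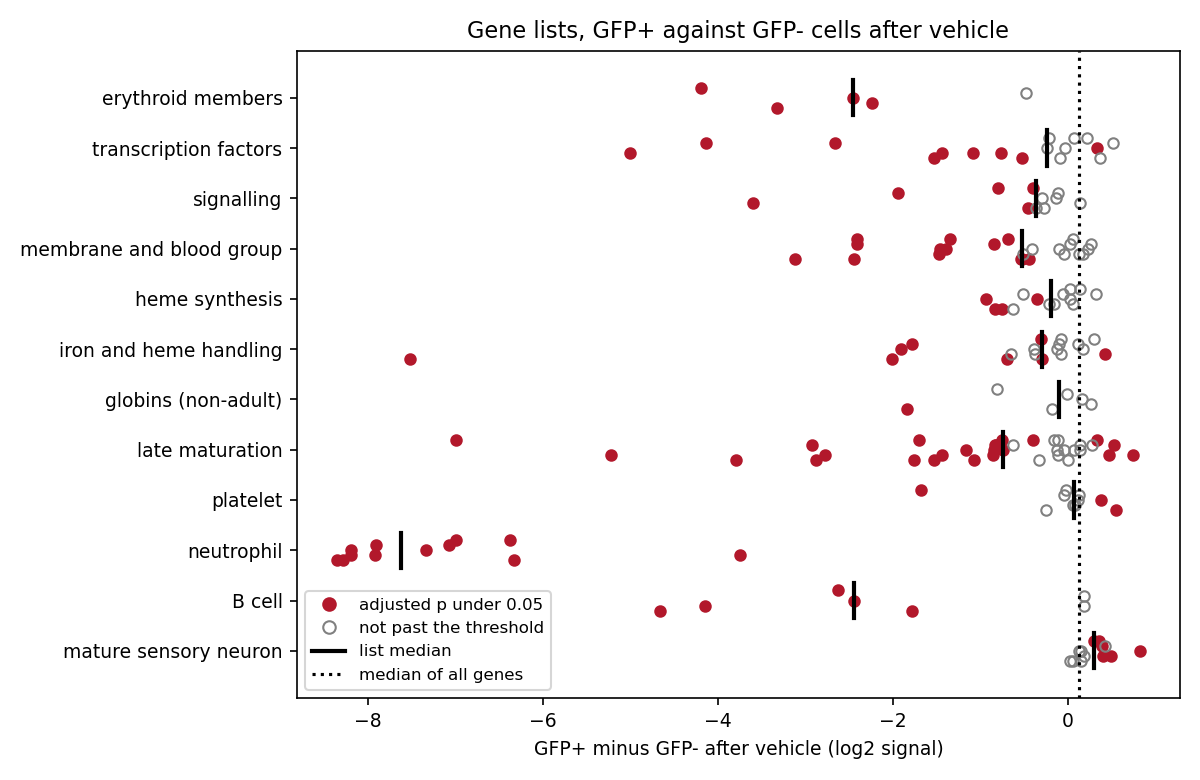
GFP+ minus GFP- difference in log2 signal after vehicle for each measured gene of the erythroid lists and of 4 other cell types (filled where the adjusted p is under 0.05), with each list's median as a bar and the median of all genes (0.13) dotted. Values are of deposited signals, also where these lie under background. The 5 genes have a median of -2.45, the other erythroid lists -0.75 to -0.10, and the neutrophil list -7.62.

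Among 17 erythroid transcription factors, 8 were lower in GFP+ cells after octanol and 8 after vehicle, and 1, Bcl11a, was higher after vehicle (0.33 ± 0.11 SE, limma, adjusted p = 0.0495) but not with arrays centred on the odorant receptor median (0.03, adjusted p = 0.873). E2f2, a cell cycle regulator of erythroblasts, averaged 5.95 in octanol GFP+ cells against 10.72 in octanol GFP-, and 5.77 in vehicle GFP+ against 10.77 in vehicle GFP-, at least 20.5-fold and 21.9-fold lower. Lyl1, a basic helix-loop-helix factor, was at least 4.95-fold lower after octanol and 5.75-fold after vehicle. Nfe2, a factor at globin genes, was at least 3.31-fold and 2.38-fold lower. Gata1 was close to background, at -0.68 after octanol (limma, adjusted p = 0.00826) and -0.52 after vehicle (adjusted p = 0.0304), and the second of these did not pass with arrays centred on the median of all genes or quantile normalised (adjusted p = 0.281 and 0.194). Tal1, its partner factor, differed by -0.005 after octanol (adjusted p = 0.979) and -0.03 after vehicle (adjusted p = 0.882).

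Of 11 signalling genes, 5 were lower after octanol and 5 after vehicle, and 0 were higher. Over all genes, 13.2% and 13.5% were lower. With arrays centred on the median of all genes, Socs3, Stat5b and Stat5a no longer passed after vehicle. They were then at -0.46, -0.12 and -0.06 (limma, adjusted p = 0.136, 0.336 and 0.653). With quantile normalisation Stat5b and Stat5a did not pass either (adjusted p = 0.546 and 0.598). Kit, the stem cell factor receptor of early progenitors and mast cells, was lower by a factor of at least 8.60 after octanol and 9.74 after vehicle. Which cells of the mucosa carried Kit was not tested. Sh2b3, an adaptor that restrains cytokine signalling, was at least 2.41-fold and 2.47-fold lower. Epor, the erythropoietin receptor, averaged 6.70 in octanol GFP+ against 6.97 in octanol GFP- cells and 6.59 in vehicle GFP+ against 6.95 in vehicle GFP-, and did not pass (limma, adjusted p = 0.368 and 0.228).

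The membrane list, which shares the structure that Slc4a1, Epb42 and Rhag belong to, had 13 of 23 genes lower after octanol and 13 after vehicle. With arrays centred on the median of all genes, Cd47 no longer passed after octanol or vehicle (limma, adjusted p = 0.0570 and 0.0905). Tmod3 and Mpp1 no longer did after vehicle (adjusted p = 0.229 and 0.368). Aqp1, the water channel, was at least 6.47-fold lower after octanol and 8.27-fold after vehicle. Slc14a1, the urea transporter, was at least 4.03-fold and 4.69-fold lower, Sptb, erythroid beta spectrin, at least 2.24-fold and 2.19-fold, and Ermap, a blood group antigen, at least 2.01-fold and 2.14-fold. Ank1, the ankyrin that ties band 3 to spectrin, did not pass (0.26 after octanol, adjusted p = 0.281, and 0.17 after vehicle, adjusted p = 0.488, limma). After octanol, Add2 and Dmtn, which cap and bundle actin, were higher in GFP+ cells (0.37 and 0.35), and with arrays centred on the odorant receptor median they turned to -0.13 and -0.15.

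In heme synthesis, where Alas2 acts, 5 of 14 genes were lower after octanol and 4 after vehicle, with 0 higher. Slc25a37, the mitochondrial iron importer, was lower by 0.99 log2 after octanol (difference -0.99, limma, adjusted p = 9.26e-04) and showed -0.93 after vehicle (adjusted p = 0.00137). Fech, ferrochelatase, showed -0.61 and -0.76, and Tmem14c, a porphyrin transporter, -0.67 and -0.83, and both passed after each exposure. Alad, the enzyme after Alas2, passed after octanol (-0.73, limma, adjusted p = 0.0272) and not after vehicle (-0.62, adjusted p = 0.0522). The first of these did not pass with quantile normalisation (-0.57, adjusted p = 0.0735) or with arrays centred on the median of all genes (-0.46, adjusted p = 0.0772). In the same settings Tspo2 after octanol (limma, adjusted p = 0.111 and 0.0731) and Urod after vehicle (0.108 and 0.845) lost their lower calls. Alas1, the form of the enzyme that all cells use, was 1.80-fold lower in GFP+ cells after octanol and 1.68-fold after vehicle, against 4.22-fold and 4.73-fold for Alas2.

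Of 18 genes of iron and heme handling, 6 were lower and 2 higher after octanol, and 7 lower and 1 higher after vehicle. Among those lower after vehicle, Ireb2 and Eif2ak1 (-0.30 each) depended on the scaling. With arrays centred on the median of all genes they turned to 0.04 and 0.03 (limma, adjusted p = 0.721 and 0.744). Ireb2 after octanol was then at -0.07 (adjusted p = 0.545). Hp, haptoglobin, which binds free hemoglobin and is also made by granulocytes, was at least 137-fold lower after octanol and 136-fold after vehicle. Blvrb, a biliverdin reductase, was 3.70-fold and 4.04-fold lower, and Ftl1, the ferritin light chain, 4.07-fold and 3.74-fold. Slc40a1, the iron exporter ferroportin, was 4.63-fold and 3.45-fold lower. Hpx, the heme binder hemopexin, was higher after both but under background in 15 of 16 arrays, and Blvra, the other biliverdin reductase, was higher after octanol (0.46). With receptor centring neither passed, and after octanol Hpx turned to -0.03 and Blvra to -0.04. Adult globin genes were not analysed here. Of 6 other globin genes, Hbq1b passed after both exposures and Hbq1a after octanol, with GFP+ arrays under background throughout, and the embryonic Hbb-y and Hba-x were under background in all 16 arrays. Hbq1a (-0.94, adjusted p = 0.0480 after octanol) did not pass with arrays centred on the median of all genes (-0.67, adjusted p = 0.0812, limma).

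Late erythroid genes had 22 of 35 lower and 3 higher after octanol, and 19 lower and 4 higher after vehicle. Some lower calls were lost with arrays centred on the median of all genes. They included Prdx2 after octanol and vehicle (limma, adjusted p = 0.230 and 0.638), Tent5c after octanol (0.347) and Cldn13 after vehicle (0.0507). Ctse was lower by a factor of at least 85.8 after octanol and 96.8 after vehicle, and Car1, a carbonic anhydrase of red cells, by at least 24.1 and 32.7. Gpx1, a glutathione peroxidase, was 12.9-fold and 13.8-fold lower, and Cat, catalase, 6.34-fold and 7.60-fold. Ypel4 and Ube2o were higher after both exposures (0.70 and 0.45 after octanol, 0.74 and 0.34 after vehicle). Fbxo7 (0.52) and Sec14l4 (0.48) were higher after vehicle and Tmcc2 (0.30) after octanol, and none of these 5 passed with arrays centred on the odorant receptor median in the comparison named, where Tmcc2 turned to -0.20 and Ube2o, after octanol, to -0.05.

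Relatives of the 5 genes were read on their own probe sets. Of 8 Slc4a transporters other than Slc4a1, 0 were lower after either exposure and 2 were higher after octanol and 3 after vehicle. Over all genes, 13.2% were lower and 16.7% higher after octanol, and 13.5% lower and 14.7% higher after vehicle. Slc4a4, a sodium-bicarbonate cotransporter, differed by 0.83 after octanol and 0.82 after vehicle, whereas Slc4a8 (0.34 and 0.38) did not pass with receptor centring and turned to -0.16 after octanol. Slc4a2, higher after vehicle (0.49), did not pass with receptor centring either (0.19, limma, adjusted p = 0.487). Of 16 Klf factors, 6 were lower after vehicle, among them Klf5, 9.76-fold lower after octanol and 8.20-fold after vehicle, and Klf4, at least 1.75-fold and 2.36-fold. Klf10 (-0.42 after vehicle) did not pass there with arrays centred on the median of all genes (-0.09, limma, adjusted p = 0.509). Of 8 transglutaminases, the enzyme family to which Epb42 is related, 1 was lower and 0 higher after octanol, and 1 lower and 1 higher after vehicle, with a median of -0.06 and 0.25. F13a1, made by monocytes and platelets, was 13.6-fold and 12.8-fold lower. Tgm4 was higher after vehicle (0.65, limma, adjusted p = 0.00629), differed by 0.03 after octanol (adjusted p = 0.881), and did not pass after vehicle with receptor centring (0.35, adjusted p = 0.146). Rhd, the partner of Rhag, was lower in both but had 2 of 4 octanol GFP- arrays and 1 of 4 vehicle GFP- arrays above background. Rhcg, an ammonia transporter of the same family, was under background in all 16 arrays, was higher after octanol (0.30, limma, adjusted p = 0.0328) and not after vehicle (-0.10, adjusted p = 0.450), and with receptor centring turned to -0.19 after octanol (adjusted p = 0.204).

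Markers of other cells moved with the same sort. All 12 neutrophil markers were lower in GFP+ cells after vehicle, and their mean log2 signal was 7.39 to 9.37 in octanol GFP+ arrays against 14.25 to 15.19 in octanol GFP-, and 6.863 to 7.495 in vehicle GFP+ against 14.02 to 15.09 in vehicle GFP-. After vehicle 10 of 11 monocyte and macrophage, 5 of 7 B cell, 6 of 7 T and NK cell, 6 of 7 eosinophil, 5 of 10 mast cell and basophil, and 6 of 8 blood progenitor markers were lower, and 0 of them were higher. Over all genes, 13.2% were lower and 16.7% higher after octanol, and 13.5% lower and 14.7% higher after vehicle. C1qc, Cd3d and Cd34 lost their vehicle calls with quantile normalisation (limma, adjusted p = 0.117, 0.058 and 0.103). With arrays centred on the median of all genes they did too (0.056, 0.079 and 0.097). C1qb lost it with quantile normalisation (0.054). The platelet list had 1 of 10 lower (Itgb3, -1.68) and 2 higher after vehicle, of which 0 were higher with receptor centring, and Ppbp, a defining platelet gene, was under background in all 16 arrays. Its mean signal was 5.93 to 6.27 in octanol GFP+ arrays against 6.11 to 6.25 in octanol GFP-, and 6.05 to 6.12 in vehicle GFP+ against 6.12 to 6.17 in vehicle GFP-. Of 7 endothelial markers, 2 were lower and 1 higher after octanol, and 2 lower and 0 higher after vehicle. The higher one, Tie1 (0.58, limma, adjusted p = 0.00212), did not pass with receptor centring (0.08), and Tek, one of those lower, passed after neither exposure with arrays centred on the median of all genes (-0.31, adjusted p = 0.0571, and -0.14, adjusted p = 0.330). Of 5 genes known from kidney intercalated cells, 3 were lower after octanol and 3 after vehicle. Among them Foxi1, a transcription factor, was 10.6-fold and 10.4-fold lower. The mean signal of this list was 5.71 to 6.25 in octanol GFP+ against 7.05 to 7.71 in octanol GFP- arrays. It was 5.87 to 6.07 in vehicle GFP+ against 7.31 to 7.52 in vehicle GFP-. The cells of the mucosa that gave these signals were not identified. The part of each of these cell types in the differences of the 5 erythroid genes was not tested.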

How the data were processed

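RNA of sorted GFP+ and GFP- cells was measured on 16 Clariom S arrays, 4 per group. Per the submitters' processing notes, the authors used Affymetrix Expression Console, and its version and normalisation settings are not given here. The deposited signals are on a log2 scale, span 2.22 to 18.70, have array medians between 7.42 and 7.70, and were not transformed further. Among 28846 probe sets, 19572 have 1 gene symbol, and taking the highest mean per gene left 19505 genes, each found in RefSeq by Entrez number. The number of arrays limits the precision.

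Fractions were compared with limma 3.58.1 in R 4.3.3 (lmFit and eBayes, 2-sided) on all 16 arrays with a fixed block for the mouse pool, and exposures within a fraction on 8 arrays with no block. P-values were adjusted by Benjamini-Hochberg over all genes, with a threshold of 0.05. GFP+ and GFP- arrays of one exposure and number were taken as one pool, since 24 mice make 8 pools of 3. The labels do not state this. Deviations from group means correlated at 0.0779 to 0.222 within such pools, and at 0.0582 to 0.332 between octanol and vehicle arrays that share only a number. Separate pools are the replicates. Background was set where 95% of the mean signals of vomeronasal receptor genes lie below it. Correlations over 8 GFP- arrays used exact permutation tests of 35 pairs. On simulated data, the fit called 195 of 200 genes changed by 2 log2 among 19505 for either fraction comparison, with 8 false calls after octanol and 2 after vehicle. The simulated arrays had independent noise and no pool effect. Smaller changes were not simulated, and 0 genes were changed for the octanol effect on the difference, so the power for those was not tested. Genes named are the 5 genes, up to 4 of largest difference per erythroid list with those going the other way, close relatives, up to 3 per other cell type, and the 12 most alike in GFP- arrays. Gata1, Tal1, Epor, Ank1, Tie1 and Ppbp were named after their values were seen. The members and lists were chosen with earlier results of these data known. Alternatives were other scalings, a variance trend, no block, background and replicates left out.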

Additional observations from a re-analysis of the deposited data

Results flagged for a closer look

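Of 20 checks for a lone array (5 genes in 4 groups of 4 arrays), 2 found one, where chance gives about 1 in 20. Slc4a1 in vehicle GFP- cells had a lowest array of 11.62 log2, whose gap to the next array was 0.835 of the group's range. Epb42 in the same group had a lowest array of 5.87 log2, with a gap of 0.860 of the range. Both exceed the 95% limit of Dixon's test for 4 arrays, and both values come from vehicle array 2. The 20 checks share arrays and are not independent, so the 2 flags describe 1 array.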

How the results depend on the processing

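Slc4a1, Rhag, Epb42 and Alas2 kept their direction and their side of the threshold in 120 of 120 alternatives over both exposures, at -4.54 to -1.80 log2 (highest limma adjusted p 0.00438). Klf1 passed without replicate 2 of both exposures, chosen after seeing the data, at -0.53 after octanol (adjusted p = 0.0459) and -0.72 after vehicle (adjusted p = 0.0138). With arrays centred on the odorant receptor median it passed at -0.96 and -0.78. Leaving out single replicates gave Klf1 -0.55 to -0.33 after octanol and -0.72 to -0.32 after vehicle. The cause was not tested. Genes called numbered 5826 after octanol and 5502 after vehicle (55.9% and 52.2% of them higher in GFP+ cells). With arrays centred on the median of all genes they numbered 13429 and 14745 (84.9% and 86.5% higher), and with receptor centring 9276 and 5017 (5.78% and 12.6% higher), and quantile normalisation gave 65.0% higher after vehicle. Without the pool as a replicate block the counts were 5280 and 4991, and the replicate number as a replicate block gave 0 for octanol against vehicle in either fraction. Neither changed a call of the 5 genes, but with the number as a block the SE in GFP- cells was 0.15 to 0.20, against 0.21 to 0.53 without it, and in GFP+ cells 0.12 to 0.35 against 0.12 to 0.42.

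The octanol effects, none past the threshold, changed sign in some settings (limma adjusted p 0.840 or above). For the effect on the fraction difference, receptor centring gave -0.094 for Slc4a1, -0.033 for Alas2, -0.18 for Klf1 and -0.042 for Rhag. Klf1 was at -0.015 with quantile normalisation and -0.0495 with median centring, Epb42 at 0.12 without replicate 2 of both, and the trend with robust moderation called 1 gene. In GFP+ cells, Klf1 was at -0.037 with quantile normalisation, -0.016 with median centring and -0.0404 with receptor centring, Alas2 at -0.017 with receptor centring, and Epb42 at 0.11 without replicate 2 of both. In GFP- cells, Klf1 was at 0.033 with median centring and 0.14 with receptor centring, Alas2 at 0.016 and Rhag at 0.10 with receptor centring, and Slc4a1 at -0.082 and Epb42 at -0.0104 without replicate 2 of both. With single replicates left out, the effect on the difference spanned -0.073 to 0.42 for Slc4a1, -0.11 to 0.52 for Alas2, -0.60 to 0.26 for Epb42, -0.15 to 0.26 for Klf1 and -0.18 to 0.61 for Rhag. In GFP+ cells it spanned -0.23 to 0.15 for Alas2, -0.049 to 0.0675 for Klf1 and -0.15 to 0.35 for Rhag. In GFP- cells it spanned -0.40 to 0.36 for Slc4a1, -0.49 to 0.14 for Alas2, -0.28 to 0.44 for Epb42, -0.22 to 0.10 for Klf1 and -0.61 to 0.31 for Rhag. Over GFP- arrays the pairs passing numbered 0 and the median r was 0.68 without the 2 farthest arrays, against 10 and 0.92. With background at the 99th percentile, Klf1 was above it in 0 of 16 arrays, against 4.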
